A study of Mus musculus with 30 samples.

Results

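Haematopoietic stem cells of 1-year-old mice with a germ-free bowel (GF) were compared with those of wild-type mice (WT) of the same age. The 7 libraries were chosen by their titles, 2 GF and 5 WT, of 30 libraries in the series. The series covers 3 genotype or housing groups: GF, IL1R1 KO, which lack the receptor for interleukin-1, and WT. IL1R1 KO and WT libraries of 2 years, and IL1R1 KO libraries of 2 months, enter only the estimate of spread. GF and WT were also sampled at 2 months, with 3 GF and 4 WT libraries, and those serve as a second, separate comparison. IL1R1 KO libraries of 1 year, 4 in number, also enter the estimate of spread. Their values are given beside those of some genes, without a test. The title of the study places the work in the question of how the microbiome and interleukin-1 act on stem cell ageing. The design text counts 30 mice, so each library is read as 1 animal. The labels used here name no strain, sex, litter or cage. The germ-free state is entered under the label for genotype, and the labels do not say how it was reached or checked.

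Haematopoietic stem cells (HSCs) sit in the bone marrow, divide rarely and give rise to red cells, platelets and all white cells. With age they become more numerous, lean toward platelet and myeloid output, and raise a recurrent set of transcripts that includes the adhesion molecule gene Selp and the stress regulator gene Nupr1. A germ-free animal carries no resident bacteria, so the bacterial products that otherwise reach the marrow through the blood are missing. Such products are sensed by Toll-like and NOD-like receptors, which signal through NF-kB and raise cytokines such as interleukin-1.

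RNA came from sorted cells, 4000 to 5000 in each library by the protocol, and was made into Smart-seq2 libraries. The values analysed are the read counts per gene that the authors normalized for depth, called normalized read counts below. Depth was estimated from the value of 1 read. It was 15.6 and 23.9 M assigned reads in GF libraries at 1 year, against 32.6 to 56.3 M reads in WT libraries, so the groups did not overlap in depth. At 2 months it was 24.9 to 32.1 M reads in GF libraries and 20.0 to 29.5 M reads in WT libraries. Genes above 0 numbered 17852 and 17975 in GF libraries and 18258 to 19417 in WT libraries at 1 year. The 2 GF libraries correlated at 0.940 over genes, against 0.959 to 0.968 between WT libraries. HSC identity genes stood at like levels in both groups. The mean log2 level of 22 HSC identity genes was 12.41 and 12.48 in GF libraries and 12.48 to 12.58 in WT libraries. The T cell receptor gene Cd3e was at 0 and 2.13 normalized reads in GF libraries and at 0 to 1.04 in WT libraries.

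Differences are GF minus WT on the log2(value + 1) scale, fitted with limma over all 30 libraries. A gene was called where its p-value, adjusted by the Benjamini-Hochberg method over 16958 tested genes, was below 0.05. At 1 year 841 genes were called (4.96% of those tested), of which 310 were higher (1.83%) and 531 lower (3.13%) in GF HSCs. The 2 GF libraries lay outside the range of the 5 WT libraries in 801 of the 841. Over all tested genes, 2236 had both GF libraries above the WT range (13.2%) and 2218 below it (13.1%). The median difference over all genes was -0.00, with a median standard error of 0.27. The changes were moderate in most genes, since 106 of the 310 rises and 155 of the 531 falls exceeded 1 on the log2 scale.

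The count rested on few animals. It was 150 without GF replicate 1 and 815 without GF replicate 2. Leaving out WT replicate 2, 3, 4 or 5 gave 540, 477, 469 or 514. With estimated depth as a covariate 19 genes were called, and with the mean level of the erythroid markers as a covariate 15. Within 1 year, depth and the germ-free state cannot be told apart. Base composition moved with the call as well. The genes that fell had a median GC content of 53.5%, the genes that rose 47.6%, and all tested genes 49.5%. After each library was smoothed over GC content, an alternative chosen after seeing the data, 737 genes were called. Of the 87 called genes named by the rule stated in the methods, 4 were called under all 23 alternatives run, namely Stk25, Hist1h4m, Ccnd1 and Serinc3. A further 6 lost their call under 1 alternative, and these were Chd9, Lrmda, Ehd3, Pik3ip1, Lgals8 and Dhcr7.

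The same contrast in the 2-month mice called 102 genes (0.601%), with 51 higher (0.301%) and 51 lower (0.301%), and 67 without GF replicate 3 of 2 months. None of its libraries is used in the 1-year contrast, and the 2 fits share only the estimate of spread. Called at both ages with the same sign were 51 genes, which is 6.06% of the 1-year calls and 50% of the 2-month calls. Over all tested genes 4.96% were called at 1 year and 0.601% at 2 months. No gene was called at both ages with opposite signs. Of these 51 genes, 30 were higher and 21 lower in GF HSCs. Among all 841 genes called at 1 year, 659 had the same sign at 2 months, 187 of them at an unadjusted p below 0.05. Over all tested genes, 9.49% had an unadjusted p below 0.05 at 2 months by limma, with either sign. The share of all tested genes with the same sign at both ages was not computed.

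**Figure D1:**
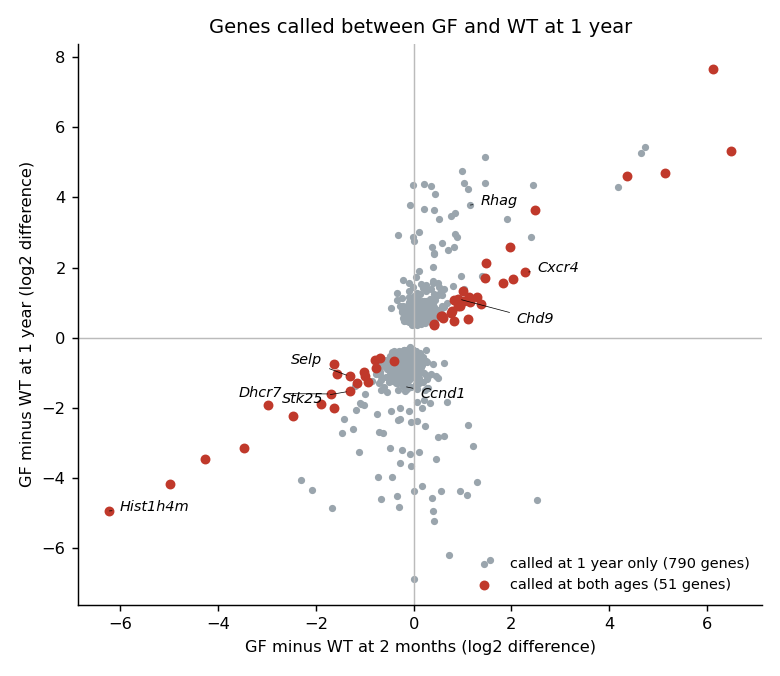
Each point is a gene called at 1 year, placed by its GF minus WT log2 difference at 2 months (horizontal) and at 1 year (vertical). The 51 genes called at both ages (red) have the same sign at both ages, and the other 790 (grey) did not pass the test at 2 months.

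Stk25, which encodes a serine/threonine kinase of the STE20 family, had the smallest p-value. It measured 1309 and 2086 normalized reads in GF libraries at 1 year, against 4222, 5220, 4914, 4935 and 4677 in WT libraries. The groups were far apart, with a log2 difference of -1.53 (SE 0.18, adjusted p = 1.87e-05). At 2 months the values were 1519, 1175 and 2113 in GF libraries and 4067, 4149, 3624 and 3575 in WT libraries, again without overlap (-1.30, adjusted p = 1.79e-05). The gene lies on chromosome 1 (93619751 to 93658659, minus strand, GRCm38). The 4 IL1R1 KO libraries of 1 year, at 3139 to 4788, were closer to WT.

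Hist1h4m, a histone H4 gene of the cluster on chromosome 13, was listed at 0 in both GF libraries of 1 year and in all 3 of 2 months. The WT libraries held 19.4, 22.2, 26.8, 45.0 and 45.9 normalized reads at 1 year and 47.7 to 96.3 at 2 months. In IL1R1 KO libraries of 1 year it held 27.1 to 80.5. The adjusted p was 1.87e-05 at 1 year and 2.99e-08 at 2 months, and no fold is given against a group at 0. The library type selects polyadenylated RNA, and the histone H4 genes are close copies of one another between which reads can be divided. Hist1h4d, another H4 gene, had 493.6 and 436.7 normalized reads in GF libraries and 313.3 to 794.8 in WT libraries at 1 year. Hist1h4c had 3.49 and 13.8 in GF libraries and 30.3 to 48.3 in WT libraries. For Hist1h4i the values were 234.7 and 156.9 against 241.6 to 419.5, also below the WT range. Hist1h4n had 67.8 and 32.8 against 15.8 to 45.8, with overlap. H4 reads were thus present in both groups, and the copies did not move alike. Whether reads were divided between copies was not tested.

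Chd9, which encodes a chromatin remodeller of the CHD family, was higher in GF HSCs. It had 10666 and 10754 normalized reads in GF libraries, against 5819, 4604, 4803, 4738 and 4998 in WT libraries. The 2 groups did not overlap (log2 difference 1.11, SE 0.15, adjusted p = 0.000119), and at 2 months the difference was 0.91 (adjusted p = 0.000281). Serinc3, a membrane protein gene named for a proposed part in putting serine into lipids, had 92311 and 102054 in GF libraries and 45072 to 55951 in WT libraries (0.91, adjusted p = 0.000128). Its difference at 2 months was 0.90 as well. IL1R1 KO libraries of 1 year lay between the 2 for Serinc3, at 63009 to 76491, while for Chd9, at 5006 to 5891, they overlapped the WT libraries.

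Other genes that moved at both ages serve varied roles. Lgals8, which encodes a sugar-binding galectin that marks damaged vesicles, rose by 1.04 at 1 year and 1.04 at 2 months. Pik3ip1, an inhibitor of PI3 kinase, rose by 0.75 at 1 year and 0.79 at 2 months. Lrmda, a melanocyte-associated gene, fell by 2.02 at 1 year and 1.63 at 2 months. Cxcr4, the receptor that holds HSCs in the marrow through the chemokine CXCL12, was picked out after its values were seen. It had 428.8 and 429.1 normalized reads in GF libraries, against 148.0, 152.7, 56.6, 110.1 and 157.9 in WT libraries of 1 year. Both GF libraries stood above every WT library, with a difference of 1.86 (adjusted p = 0.00513), and at 2 months the difference was 2.28 (adjusted p = 0.000212). Values of Cxcr4 with single libraries left out were not computed.

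**Figure D2:**
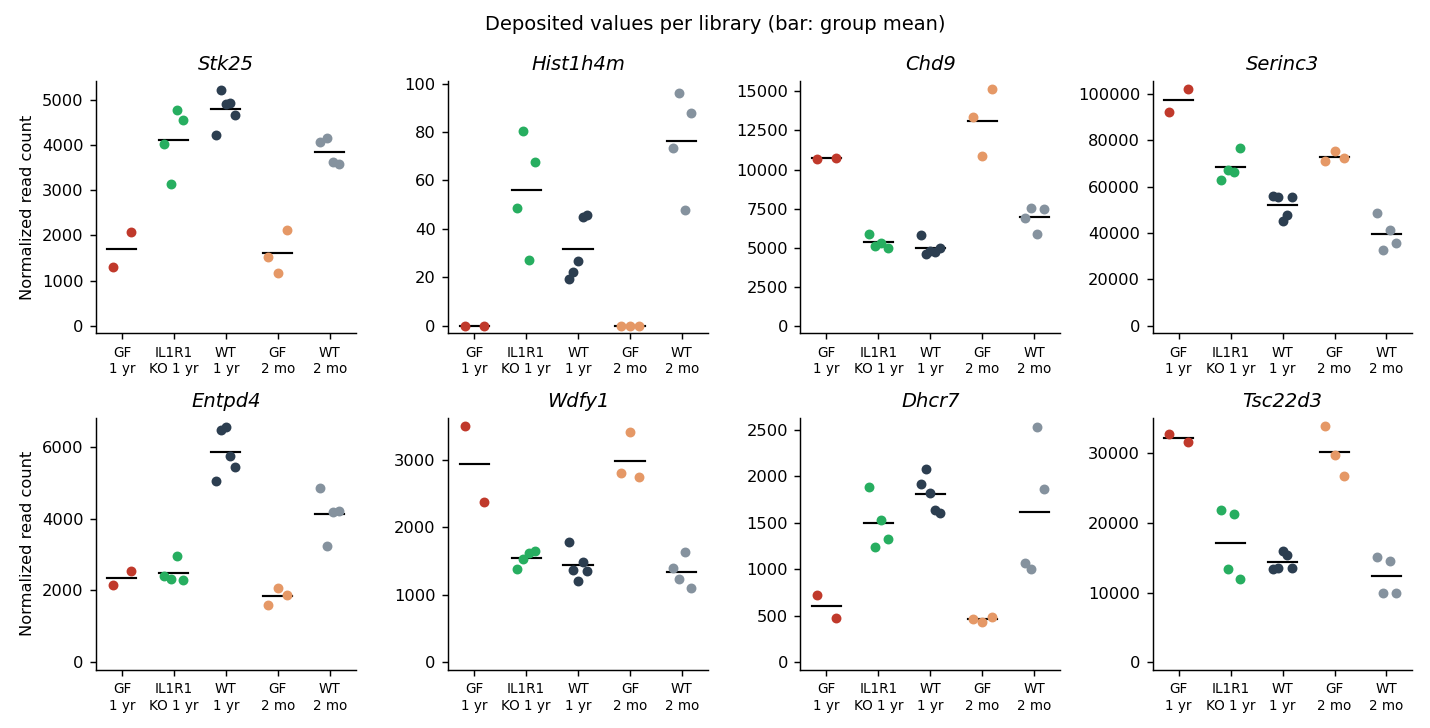
Deposited normalized read counts of 8 genes called at both ages, 1 point per library, with a bar at each group mean. In each panel the GF libraries stand apart from the WT libraries at 1 year and at 2 months, and the IL1R1 KO libraries of 1 year lie with GF for Entpd4 and near WT for Stk25, Chd9 and Wdfy1.

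Some of these genes are known to differ between substrains of C57BL/6 mice, so a list of such transcripts was set beside the comparison. Over all genes 1.83% were higher and 3.13% lower in GF HSCs at 1 year. Of 8 tested on this list, 2 were higher and 3 lower. Without GF replicate 1 these counts were 0 and 1, and without GF replicate 2 or any of WT replicates 2 to 5 they were 1 and 3. Entpd4, which encodes a nucleoside diphosphatase of the Golgi, had 2167 and 2540 normalized reads in GF libraries, against 5052, 6462, 6557, 5733 and 5441 in WT libraries. These groups did not overlap (-1.31, SE 0.18, adjusted p = 0.000119). The IL1R1 KO libraries, at 2292 to 2969, were near the GF level, and at 2 months Entpd4 differed between GF and WT by -1.15. Wdfy1, an adaptor for endosomal Toll-like receptors, rose by 1.02 at 1 year and 1.16 at 2 months, with IL1R1 KO libraries at 1382 to 1652 and WT libraries at 1203 to 1782.

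Nnt, a mitochondrial transhydrogenase gene that carries a deletion in some C57BL/6 lines, had 2247 and 2433 normalized reads in GF libraries and 2048, 1009, 687.3, 965.0 and 1401 in WT libraries. The gene was expressed in every library, and the lowest GF value was just above the highest WT value (1.04, adjusted p = 0.0475). Its call was lost under 16 of the 23 alternatives, with adjusted p = 0.215 without GF replicate 1 and 0.179 without GF replicate 2, and 0.0868, 0.111, 0.0977 and 0.0538 without WT replicates 2 to 5. Ide, which encodes the insulin-degrading enzyme, and its neighbour Fgfbp3, which encodes a carrier of fibroblast growth factors, both lie on chromosome 19. Ide fell by 1.27 and Fgfbp3 by 1.28 at 1 year. At 2 months Ide had 2927 to 3662 in GF libraries and 3159 to 4318 in WT libraries, with overlap. Its WT level at 1 year was higher, at 6291 to 8304. Without GF replicate 1 the adjusted p was 0.0807 for Ide, 0.107 for Fgfbp3 and 0.116 for Wdfy1. Whether GF and WT animals shared a genetic background was not tested.

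Of 28 genes whose expression rises in HSCs with age, all tested, 8 fell and 1 rose in GF HSCs at 1 year, and 19 did not pass the test. Over all genes 3.13% fell and 1.83% rose. Their median difference was -0.40, against -0.00 over all genes, and 23 of 28 were below 0. At 2 months 4 fell and 2 rose, and the median was -0.38. The 8 falls became 3 without GF replicate 1, 3 without GF replicate 2 and 5 without WT replicate 3 or 5. With the depth covariate 0 of the list were called, and the median was -0.37.

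Selp, which encodes P-selectin, had 6523 and 7443 normalized reads in GF libraries, against 12815, 12986, 16603, 15613 and 17863 in WT libraries. All WT libraries were well above the GF ones (-1.11, SE 0.20, adjusted p = 0.00155). At 2 months, where its level is far lower, Selp had 743, 1135 and 902 in GF libraries and 1968, 2038, 1973 and 3275 in WT libraries (-1.30, adjusted p = 7e-05). Nupr1, a stress-induced chromatin protein gene, had 4295 and 2523 in GF libraries, against 6306, 6879, 6354, 6476 and 6703 in WT libraries (-0.99, adjusted p = 0.00842). The WT libraries were close together and the 2 GF libraries were not. Nupr1 was also lower at 2 months, by 1.03 on the log2 scale. Between them lay the IL1R1 KO libraries of 1 year, at 8317 to 11680 for Selp and 4504 to 5389 for Nupr1.

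Ehd3, which encodes a protein of endosomal recycling, had 2199 and 2171 in GF libraries and 4319, 4322, 5637, 5176 and 5760 in WT libraries (-1.195, SE 0.18, adjusted p = 0.000222). It differed by -0.50 at 2 months, which did not pass the test (adjusted p = 0.213). Sbspon, a secreted matrix protein gene, fell by 1.61 and Slamf1, the CD150 receptor used to sort HSCs, by 0.57 at 1 year. Clu, which encodes the chaperone clusterin, had 5373 and 4797 in GF libraries and 7481 to 11259 in WT libraries, and its adjusted p of 0.0509 missed the threshold (0.0355 without WT replicate 1). It was called at 2 months (-1.32, adjusted p = 0.00282). Vwf, the gene for von Willebrand factor, had 11050 and 5674 in GF libraries and 8863 to 10659 in WT libraries, and the GF values lay on both sides of the WT range. Aldh1a1, an aldehyde dehydrogenase gene, differed by -0.06 (adjusted p = 0.89). The 1 member that rose was Sult1a1, a sulfotransferase gene, with 0.53 at 1 year and 1.11 at 2 months. Calls lost without GF replicate 1 were those of Selp (adjusted p = 0.0548), Slamf1 (0.149) and Sult1a1 (0.178). Calls lost without GF replicate 2 were those of Nupr1 (0.199), Sbspon (0.141) and Slamf1 (0.081).

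**Figure D3:**
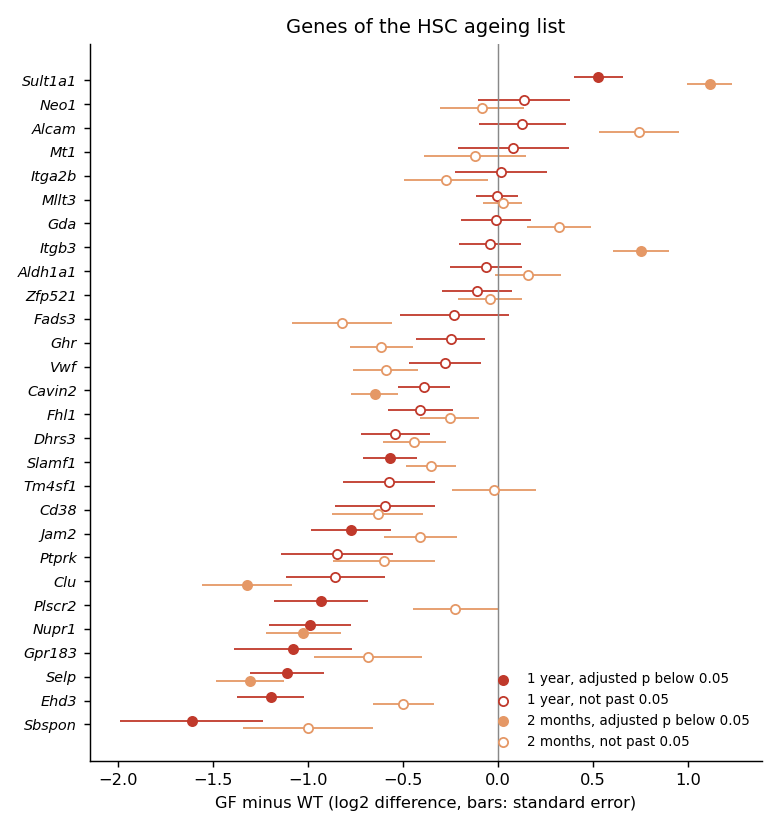
GF minus WT log2 differences of the 28 genes of the HSC ageing list at 1 year (red) and 2 months (orange), with standard errors as bars and filled points for adjusted p below 0.05. At 1 year 23 of 28 points lie below 0 and 8 of those are filled, and Sult1a1 is the filled point above 0.

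Where 3.13% of all genes fell and 1.83% rose, the genes that define HSCs changed less than the ageing list. Of 22 tested, 3 fell and 0 rose, with a median of -0.10, and without GF replicate 1 there was 1 fall. Procr, which encodes the EPCR receptor used to purify HSCs, had 4295 and 4621 in GF libraries and 5708 to 7033 in WT libraries (-0.50, adjusted p = 0.0239). Its call was lost without GF replicate 1 or 2 (adjusted p = 0.222 and 0.0589) and without WT replicate 2 or 4 (0.0543 and 0.0507). Hlf, a transcription factor gene of HSCs, differed by -0.12 (adjusted p = 0.64) and Kit, the stem cell factor receptor gene, by -0.25 (adjusted p = 0.315, or 0.0497 without GF replicate 2).

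Of 14 erythroid markers, 7 rose and 0 fell, with a median difference of 3.11, where 1.83% of all genes rose. They included the Rh-associated glycoprotein gene Rhag, the carbonic anhydrase gene Car1, the erythroid membrane gene Ermap, the globin gene Hbb-bt and the transcription factor genes Klf1 and Gata1. Of a second list of red cell membrane and blood group genes, put together after the values were seen, 10 of 20 rose and 1 fell, with 4 rises without GF replicate 1 and 4 without GF replicate 2. The number of erythroid markers that rose was 4 without GF replicate 1, 1 without GF replicate 2 and 0 with the depth covariate, where the median was 2.64. Both lists hold Rhag and Ermap, which rose, so their counts are not separate. In bulk libraries, more cells of a type and more RNA per cell cannot be told apart.

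GATA1 reads a GATA motif, which was searched near the start sites of the erythroid markers. The promoters of 3 genes that rose are shown, with 250 bases before and 50 after the start, from RefSeq (GRCm38.p6), and with the motif in capitals. The motif searched was GATA with an A or T before it and an A or G after it, on both strands. Rhag is at chr17:40810899-40811198 (plus strand), Klf1 at chr8:84901732-84902031 (plus strand) and Ermap at chr4:119189946-119190245 (minus strand).
Rhag: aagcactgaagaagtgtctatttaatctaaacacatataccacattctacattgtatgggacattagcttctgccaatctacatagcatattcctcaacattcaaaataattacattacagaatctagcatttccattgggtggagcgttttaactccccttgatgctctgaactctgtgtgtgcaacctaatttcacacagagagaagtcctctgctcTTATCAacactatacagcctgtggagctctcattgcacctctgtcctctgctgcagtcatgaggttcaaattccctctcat
Klf1: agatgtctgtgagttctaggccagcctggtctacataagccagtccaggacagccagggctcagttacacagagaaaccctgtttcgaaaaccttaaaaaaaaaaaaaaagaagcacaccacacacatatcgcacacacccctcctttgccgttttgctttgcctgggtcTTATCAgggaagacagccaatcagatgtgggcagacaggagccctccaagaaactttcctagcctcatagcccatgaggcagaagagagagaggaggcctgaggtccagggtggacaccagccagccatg
Ermap: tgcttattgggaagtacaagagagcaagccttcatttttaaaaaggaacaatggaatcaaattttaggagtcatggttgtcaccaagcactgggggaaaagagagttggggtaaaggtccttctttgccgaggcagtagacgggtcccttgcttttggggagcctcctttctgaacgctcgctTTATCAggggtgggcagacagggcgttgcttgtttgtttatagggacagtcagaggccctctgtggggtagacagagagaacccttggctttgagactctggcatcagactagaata
Each of the 3 windows held 1 match. Of the 5 erythroid markers that rose and have a window in the table, 3 held a match, and of the 10 tested markers that have a window, whether they rose or not, 8 did. Of all 32851 windows 29.8% held a match, and of all genes with a window 33%.

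Rhag, which encodes a membrane channel of red cell precursors, had 639.5 and 1149 normalized reads in GF libraries at 1 year, against 160.1, 22.5, 47.5, 68.4 and 72.4 in WT libraries. The lowest GF value was about 4 times the highest WT value, that of WT replicate 1 (log2 difference 3.78, SE 0.65, adjusted p = 0.00131). Klf1, the regulator that turns on globin and red cell membrane genes, had 758.3 and 1099 in GF libraries and 294.0, 127.7, 109.8, 117.7 and 158.5 in WT libraries (2.59, adjusted p = 0.00554). Ermap had 527.5 and 1429 in GF libraries and 270.9, 3.82, 25.6, 112.1 and 37.3 in WT libraries (4.33, adjusted p = 0.00973). WT replicate 1 was the highest WT library for all 3 genes.

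Kel, which encodes the Kell blood group protein, rose by 5.16 and Rhd, the Rhesus D gene, by 4.75. Globin transcripts were present in all libraries, with Hba-a1 at 1434 and 3049 normalized reads in GF libraries and 41.2 to 406.4 in WT libraries, and that difference of 3.61 did not pass the test (adjusted p = 0.085). The early erythroid gene Car2 had 53182 and 50998 in GF libraries and 48428 to 64286 in WT libraries, and the receptor gene Epor differed by 0.23, so neither was called. Without GF replicate 1 the calls of Ermap (adjusted p = 0.0508) and Kel (0.107) were lost. Without GF replicate 2 those of Ermap (0.0942), Klf1 (0.0516), Car1 (0.0589) and Gata1 (0.243) were lost, and those of Rhag and Rhd were kept in both cases.

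The mean log2 level of the 14 markers was 9.49 and 10.55 in GF libraries and 8.44, 6.42, 7.66, 7.05 and 7.70 in WT libraries at 1 year. IL1R1 KO libraries of 1 year were at 8.76 to 9.85. At 2 months GF libraries were at 9.75 to 10.54 and WT libraries at 8.18 to 9.66. WT replicates 2 to 5 of 1 year were thus below every other library of these groups, and WT replicate 1 was not. At 2 months limma called 0 of the 14, against 0.301% of all genes higher. The 2 libraries of lowest level, WT replicates 2 and 4 of 1 year, had 51.5 and 32.6 M reads, while GF replicate 2, with the highest level at 1 year, had 23.9 M reads. Depth, this marker level and the germ-free state moved together, and the part of each was not tested.

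**Figure D4:**
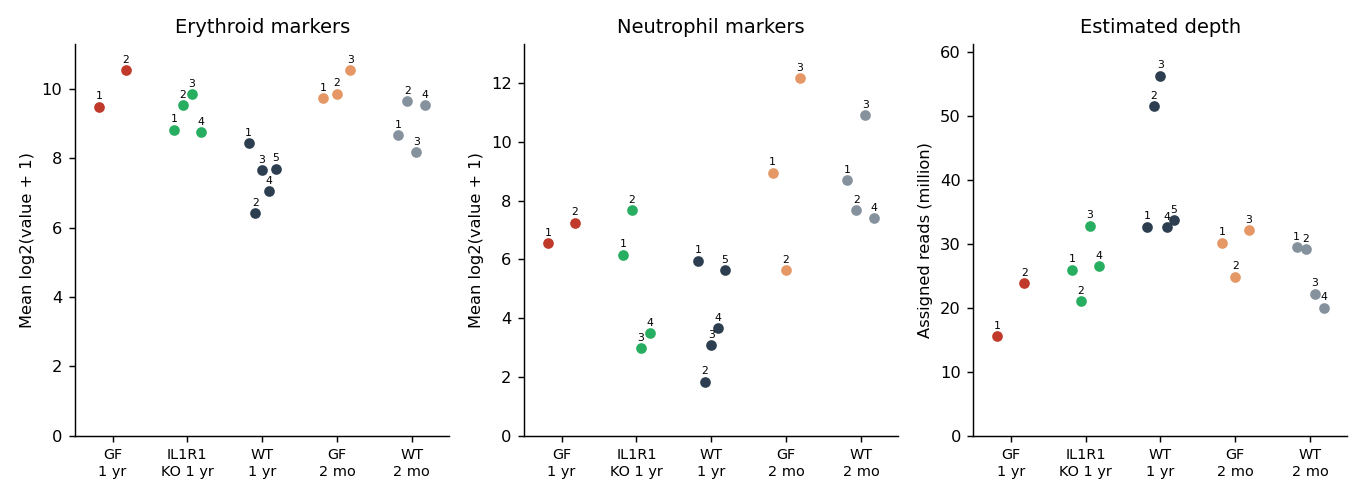
Mean log2(value + 1) of 14 erythroid markers and 13 neutrophil markers, and estimated depth in assigned reads, 1 point per library numbered by replicate. The WT libraries of 1 year have erythroid levels of 6.42 to 8.44, below both GF libraries of 1 year, and depths of 32.6 to 56.3 M reads, above both.

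Markers of other blood cells were screened in the same way. Over all tested genes 3415 (20.1%) had an unadjusted p below 0.05 by limma at 1 year. Neutrophil genes had a median difference of 3.46, but limma called 0 of 13 (5 had an unadjusted p below 0.05). Their mean log2 level was 6.56 and 7.25 in GF libraries and 5.96, 1.84, 3.07, 3.67 and 5.64 in WT libraries, so the spread among WT libraries was wide. S100a8, which encodes a calcium-binding protein abundant in neutrophils, had 1091 and 1560 in GF libraries and 682.0, 14.8, 38.7, 221.9 and 243.5 in WT libraries (adjusted p = 0.186). The neutrophil surface gene Ly6g stayed below 5 normalized reads in all 7 libraries. No marker of B and plasma cells (15 tested), of T and NK cells (12), of monocytes, macrophages and dendritic cells (15), of mast cells, basophils and eosinophils (9) or of endothelium and stroma (9) was called by limma, and 1, 2, 0, 0 and 0 of them had an unadjusted p below 0.05. Among early lineage genes, Flt3, the receptor gene of lymphoid-primed progenitors, had 1581 and 1470 in GF libraries and 684.6, 308.3, 321.3, 384.5 and 283.8 in WT libraries (2.02, adjusted p = 0.0064). The lymphoid factor gene Ikzf1 rose by 0.86. Csf3r, the G-CSF receptor gene, fell by 0.71, and Mpo, the myeloperoxidase gene of granulocyte precursors, varied from 20.5 to 2045 among WT libraries and was not called. Pf4, a platelet chemokine gene, rose by 1.54. As lists these genes did not move 1 way. Of 19 lymphoid priming genes 2 rose and 0 fell, with a median of -0.04. Of 18 myeloid priming genes 0 rose and 2 fell, with a median of 0.55. Of 21 megakaryocyte and platelet genes 2 rose and 2 fell, with a median of 0.16. Over all genes 1.83% rose and 3.13% fell. Without GF replicate 1 the adjusted p was 0.0918 for Flt3, 0.137 for Ikzf1, 0.156 for Csf3r and 0.0769 for Pf4. Without GF replicate 2 it was 0.188 for Ikzf1 and 0.149 for Pf4, and without WT replicates 2, 3 and 5 it was 0.0618, 0.0708 and 0.0666 for Ikzf1.

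No gene of the lists for sensing bacteria was called at 1 year, where 4.96% of all genes were called. In lists of this size 0 calls are close to that share. Wdfy1, the adaptor gene named above that was called, is not in these lists. An unadjusted p below 0.05 was found in 20.1% of all genes by limma. Of 28 microbial sensor genes tested, limma called 0 (1 had an unadjusted p below 0.05), and their median difference was 0.05. Of 22 genes for the adaptors and kinases below these sensors, 0 were called (4 at an unadjusted p below 0.05), with a median of -0.01, and without WT replicate 1 there was 1 fall. Tlr4, which senses lipopolysaccharide, had 552.0 and 851.9 normalized reads in GF libraries and 702.4 to 874.2 in WT libraries. Tlr2, which senses bacterial lipoproteins, had 548.1 and 839.9 in GF libraries and 651.3 to 837.2 in WT libraries. Both overlapped between groups. Myd88, the adaptor shared by most Toll-like receptors and the interleukin-1 receptor, differed by -0.01 (SE 0.14). Of 19 genes that respond to bacterial metabolites, 0 were called (4 at an unadjusted p below 0.05).

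Interleukin-1 signalling was measured over 17 genes, of which 1 was called, where 4.96% of all genes were called. Il1r1, the receptor gene, had 302.2 and 296.6 in GF libraries, against 242.9, 267.3, 281.7, 187.4 and 180.0 in WT libraries. The GF values were a little higher than every WT value, and the difference of 0.39 (SE 0.33) did not pass the test (adjusted p = 0.538). Il1rap, its co-receptor gene, had 453.0 and 1095 in GF libraries and 612.6 to 845.3 in WT libraries. Il1rl1, the receptor gene for interleukin-33, was the 1 member called, with 27.1 and 222.9 in GF libraries and 14.6, 2.71, 3.16, 2.42 and 0.556 in WT libraries (4.24, adjusted p = 0.00548). The 2 GF libraries differed widely, and without GF replicate 2 the adjusted p was 0.138. Il1b, which encodes interleukin-1 beta, had 11.3 and 21.5 in GF libraries and 0 to 25.8 in WT libraries.

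Over all genes 1.83% rose and 3.13% fell at 1 year, and 20.1% had an unadjusted p below 0.05 by limma. Of 25 NF-kB subunits and targets, 1 rose and 0 fell, close to those shares, and without WT replicate 1 2 rose. That gene was Ccl4, a chemokine gene, which rose by 1.22 (adjusted p = 0.0259) and lost its call without GF replicate 1 (0.39) and without WT replicate 3 or 5 (0.0604 and 0.0587). Nfkbia, the feedback inhibitor gene of NF-kB, had 9178 and 7408 in GF libraries and 9008 to 11453 in WT libraries (-0.30, adjusted p = 0.452). Of 26 type I interferon response genes limma called 0, with a median of -0.16 and 4 at an unadjusted p below 0.05, and without GF replicate 1 there was 1 fall. Of 25 genes of the interferon gamma response and class II presentation 0 were called, with a median of -0.06 and 3 at an unadjusted p below 0.05, and without WT replicate 2 there were 2 falls. In the class I pathway the peptide loading gene Tapbp fell by 0.53 and the immunoproteasome gene Psmb10 by 0.40, of 17 tested. The falls numbered 1 without GF replicate 1 or WT replicate 3, 4 or 5, and 0 without GF replicate 2. Tapbp lost its call without either GF library (adjusted p = 0.0876 and 0.149), and Psmb10 without GF replicate 2 (0.414) or WT replicate 3, 4 or 5 (0.0688, 0.0627 and 0.0546). Il2rg, the shared chain gene of several interleukin receptors, fell by 0.56, with adjusted p = 0.0837 and 0.11 without GF replicate 1 and 2.

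**Figure D5:**
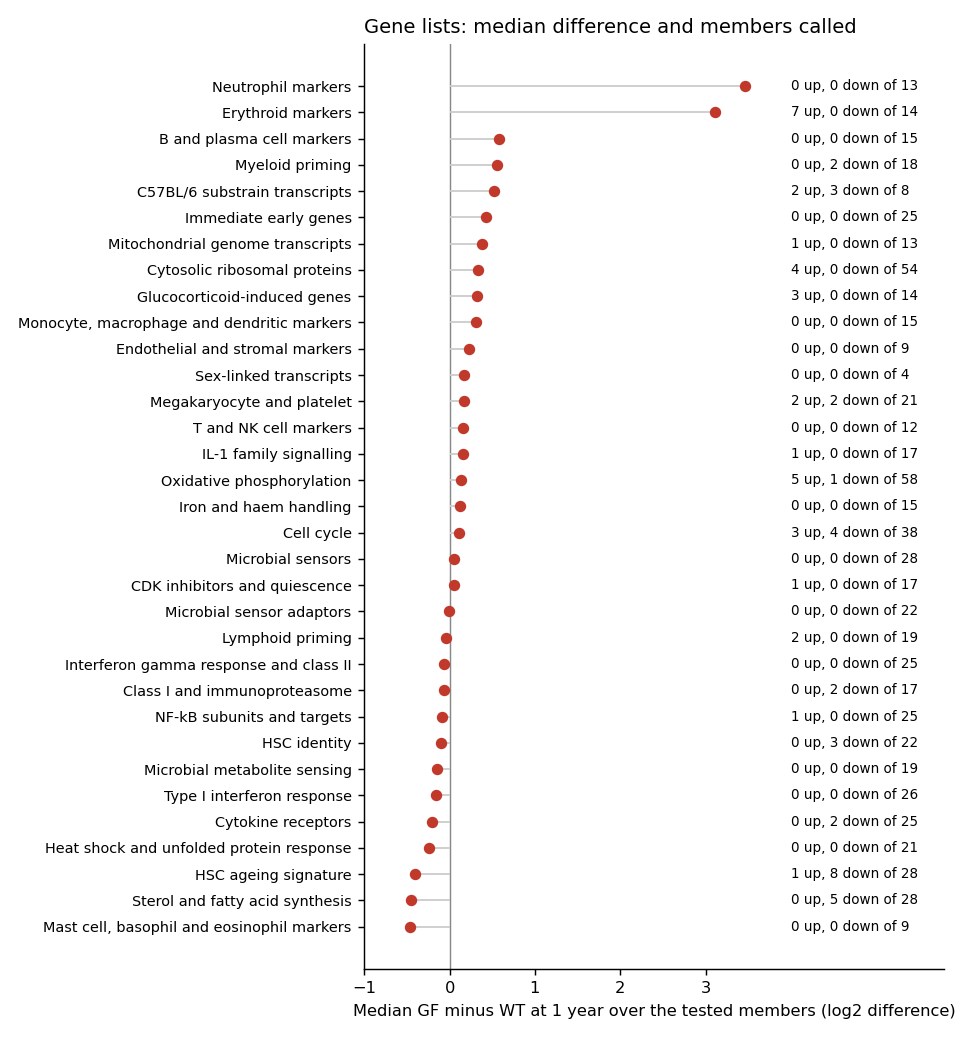
Median GF minus WT log2 difference at 1 year over the tested members of each gene list, leaving out the glycolysis, endoplasmic reticulum and red cell membrane lists chosen after seeing the data, with the number of members called in each direction printed at the right. Neutrophil and erythroid markers have medians above 3, the HSC ageing list, sterol synthesis and mast cell markers are the lowest drawn, between -0.47 and -0.40, and the lists of microbial sensing lie near 0.

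Of 14 genes induced by glucocorticoids, 3 rose and 0 fell at 1 year, where 1.83% of all genes rose, with a median of 0.33, and 4 rose at 2 months, with a median of 0.51. Fkbp5, a co-chaperone of the glucocorticoid receptor and a standard reporter of its activity, had 1612 and 1679 normalized reads in GF libraries, against 721.2, 535.8, 602.9, 547.8 and 911.9 in WT libraries. It did not overlap between groups (1.34, SE 0.23, adjusted p = 0.00131), and was higher at 2 months by 1.02 (adjusted p = 0.0138). Tsc22d3, which encodes the glucocorticoid-induced leucine zipper protein, had 32718 and 31525 in GF libraries, against 13377, 13529, 15882, 15359 and 13492 in WT libraries (1.17, adjusted p = 0.00605). At 2 months it had 33816, 29715 and 26719 in GF libraries and 9884 to 15030 in WT libraries. The third gene was Sult1a1. The receptor gene itself, Nr3c1, differed by -0.13 (adjusted p = 0.733), and the stress-induced gene Ddit4 by -0.08. For comparison, IL1R1 KO libraries of 1 year had 425.9 to 629.2 for Fkbp5 and 11944 to 21877 for Tsc22d3. Without GF replicate 1, 1 of the 14 rose and the adjusted p was 0.0867 for Tsc22d3, and Fkbp5 kept its call without either GF library. With the depth covariate neither was called, with differences of 1.22 for Fkbp5 (adjusted p = 0.138) and 1.40 for Tsc22d3 (adjusted p = 0.0928).

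Of 28 genes of sterol and fatty acid synthesis, 5 fell and 0 rose, with a median of -0.45, and 25 were below 0, where 3.13% of all genes fell. At 2 months 3 fell and 0 rose, with a median of -0.31. Dhcr7, the enzyme gene of the last step to cholesterol, had 720.1 and 480.8 normalized reads in GF libraries, against 1911, 2072, 1818, 1635 and 1604 in WT libraries. All WT libraries were more than 2 times the higher GF library (-1.61, SE 0.25, adjusted p = 0.000399). At 2 months Dhcr7 had 470.7, 438.9 and 486.7 in GF libraries and 999.2 to 2522 in WT libraries (-1.68). Sqle, which encodes squalene epoxidase, fell by 0.63 at 1 year and 0.80 at 2 months. Hmgcs1, the synthase gene at the head of the pathway, had 458.4 and 847.2 in GF libraries, against 849.2, 1465, 1240, 1273 and 1018 in WT libraries (-0.88, adjusted p = 0.0331), so GF replicate 2 nearly met WT replicate 1. The falls numbered 1 without GF replicate 1, 6 without GF replicate 2, 10 without WT replicate 1, 1 without WT replicate 2 or 3, and 2 without WT replicate 4 or 5. Dhcr7 kept its call in each of these and with the depth covariate (adjusted p = 0.0342), and Sqle lost it in every case but that of WT replicate 1, with adjusted p = 0.324 without GF replicate 1, 0.063 without GF replicate 2 and 0.0777, 0.0824, 0.0758 and 0.0547 without WT replicates 2 to 5. Hmgcs1 lost its call without GF replicate 1 (0.549) and without WT replicates 2, 3 and 4 (0.0724, 0.0649 and 0.0661).

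SREBP2, the regulator of this pathway, reads a sterol element of the form TCACNCCAC. That motif was searched on both strands in the windows of RefSeq (GRCm38.p6), and 1 of 3 genes of the list that fell and have a window, Hmgcs1, held it. It was the only match among the 18 tested genes of the list that have a window, and 1.24% of all windows and 1.44% of all genes with a window held the motif. Its window is chr13:119690101-119690400 (plus strand), with the motif in capitals.
Hmgcs1: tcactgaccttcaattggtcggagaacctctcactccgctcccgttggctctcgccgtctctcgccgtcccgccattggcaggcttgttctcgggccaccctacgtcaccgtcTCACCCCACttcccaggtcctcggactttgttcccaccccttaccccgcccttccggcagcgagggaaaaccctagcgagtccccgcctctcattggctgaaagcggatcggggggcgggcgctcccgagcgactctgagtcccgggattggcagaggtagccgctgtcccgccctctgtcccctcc
The single match starts 137 bases before the start site.

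A list of glycolysis genes and a list of endoplasmic reticulum genes were put together after seeing which genes fell, so their counts describe the choice as well as the data. Of 19 glycolysis genes 10 fell and 0 rose, and of 24 genes of folding and translocation in the endoplasmic reticulum 9 fell and 0 rose. Over all genes 3.13% fell and 1.83% rose. Pkm, which encodes the pyruvate kinase of glycolysis, had 30079 and 28548 normalized reads in GF libraries, against 39490, 50829, 50948, 50504 and 45542 in WT libraries. It did not overlap (-0.69, SE 0.10, adjusted p = 0.000128) and differed by -0.24 at 2 months (adjusted p = 0.315). Pfkl, Eno1 and Tpi1, which encode other enzymes of the pathway, fell by 0.66, 0.70 and 0.51. Hyou1, an endoplasmic reticulum chaperone gene, fell by 1.25, and Calr, which encodes the calcium-binding chaperone calreticulin, by 0.82. Without GF replicate 1, 1 glycolysis gene and 0 of the endoplasmic reticulum genes were called, without GF replicate 2 6 of each, and with the depth covariate 0 of either. Pkm kept its call without each library in turn, while the adjusted p without GF replicate 1 was 0.0559 for Pfkl, 0.0626 for Eno1, 0.106 for Tpi1, 0.178 for Hyou1 and 0.226 for Calr.

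In the cell cycle list of 38 genes, 3 rose and 4 fell, with a median of 0.11, where 1.83% of all genes rose and 3.13% fell. These counts were 0 and 2 without GF replicate 1, and 1 and 3 without GF replicate 2. Ccnd1, which encodes the D-type cyclin that starts G1, had 738.5 and 1527 normalized reads in GF libraries, against 2419, 2951, 2967, 2865 and 2752 in WT libraries. It was below the WT range in both GF libraries (-1.39, SE 0.19, adjusted p = 0.000119) and at 2 months it overlapped, with 1073 to 1596 in GF libraries and 1406 to 1623 in WT libraries. The cyclin gene Ccnd2 fell by 0.50. Mki67, a marker of dividing cells, rose, with 2964 and 3147 in GF libraries and 1911, 1587, 1602, 1294 and 1643 in WT libraries (0.94, adjusted p = 0.00587), and Birc5, a gene of mitosis, rose by 0.82. At 2 months Mki67 had 3155 to 3908 in GF libraries and 2788 to 3610 in WT libraries. Mki67 had adjusted p = 0.0625 without GF replicate 1, and Birc5 had 0.0904 and 0.0768 without GF replicates 1 and 2. Markers of red cell precursors, which divide, moved with Mki67, and their part in it was not tested.

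Of 54 ribosomal protein genes 51 had differences above 0, 4 rose and 0 fell, and the median was 0.34. Over all genes 1.83% rose and 3.13% fell. Rpl15, which encodes a protein of the large subunit, had 33514 and 28701 in GF libraries and 21046 to 24510 in WT libraries (0.47, adjusted p = 0.00829). The number that rose was 0 without GF replicate 1, with a median of 0.11, and 21 without GF replicate 2, with a median of 0.49. It was 7 without WT replicate 1 or 2, 1 without WT replicate 3 and 2 without WT replicate 4 or 5. Of 58 oxidative phosphorylation genes 5 rose and 1 fell, with a median of 0.14, or -0.04 with 0 calls without GF replicate 1 and 0.34 with 13 rises without GF replicate 2. The rises numbered 1 without WT replicate 3 or 5 and 2 without WT replicate 4. Rpl15 itself had adjusted p = 0.2 without GF replicate 1.

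The 12 largest falls among genes with a group mean of at least 50 included genes of varied roles. Kiss1r, the receptor gene for kisspeptin, had 23.01 and 28.4 normalized reads in GF libraries, against 167.4, 206.6, 191.2, 170.4 and 130.4 in WT libraries. Every WT library was more than 4 times the higher GF one (-2.70, SE 0.47, adjusted p = 0.00131). Spag4, which encodes a protein of the nuclear envelope, had 74.7 and 34.9 in GF libraries and 164.9 to 354.1 in WT libraries (-2.37, adjusted p = 0.000252). Car12, a membrane carbonic anhydrase gene, fell by 3.33 and Dlk1, a Notch-related ligand gene, by 2.35. At 2 months none of these 4 genes was called, with Kiss1r at 30.3 to 41.6 in GF libraries and 36.5 to 92.5 in WT libraries. Without GF replicate 2 the adjusted p was 0.242 for Car12, and for Dlk1 it was 0.0626 and 0.0953 without GF replicate 1 and 2.

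Whether GF and WT differed more at 1 year than at 2 months was tested with the difference of the 2 differences. No gene passed (0 of 16958, 0.0%) by limma, with 1794 at an unadjusted p below 0.05 and a lowest adjusted p of 0.083. Without GF replicate 2 of 1 year 59 genes passed, and without GF replicate 1 of 1 year 1. Leaving out WT replicate 1 of 1 year gave 7, GF replicate 1 or 2 of 2 months gave 4 or 1, and WT replicate 2 or 3 of 2 months gave 7 or 2. The larger number of calls at 1 year is therefore not shown to be a larger effect at that age. The median standard error of the difference of differences was 0.37, against 0.27 for the 1-year difference and 0.25 for the 2-month difference.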

How the data were processed

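HSCs were sorted, and RNA was amplified by Smart-seq2 and sequenced as single reads, per the labels' protocols. The submitters' processing notes list FastQC 0.11.9, cutadapt 2.10, Salmon 1.2.0.0, DESeq2 1.26.0 and the GRCm38 build, without roles. The authors deposited a signal per gene, read as counts divided by a size factor for each library (35727 genes, 30 libraries). Whole reads could not be recovered, so no count test was run. Depth was estimated from the commonest low value.

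The test took in genes that reached 10 in 3 or more of the libraries, fitted on log2(value + 1) with limma 3.58.1 (trend and robust settings, R 4.3.3), with a mean for each of 8 groups over all 30 libraries. Precision is limited by 2 GF libraries. The p-values rest on a spread pooled over all 30 libraries, to which the 2 GF libraries of 1 year add only a part. Fits that leave out a GF library of 1 year hold a single one, so their p-values carry no spread within that group. Symbols and coordinates came from GENCODE M21 (GRCm38, 35493 identifiers matched), and reads from overlapping or antisense genes cannot be told apart, since the protocol marks no strand. IL1R1 KO replicate 1 of 1 year carries an age label of 2 months and was placed by its title. Its values are within the IL1R1 KO ranges printed. For some genes, among them Serinc3, Chd9 and Tsc22d3, it sets an end of that range. It enters no comparison beyond the pooled spread.

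Named genes were the 12 largest rises and falls among called genes without overlap and with a group mean of at least 50, up to 4 called members of each list, the 12 of smallest p called at both ages, and a fixed set (Il1r1, Il1rap, Tlr2, Tlr4, Myd88, Nfkbia, Selp, Nupr1, Clu, Aldh1a1, Vwf, Cd74, Mki67, Mpo, S100a8, Procr, Hlf, Kit, Nnt, Xist and Ddx3y). Predicted genes and pseudogenes were left out. Some genes of this rule are not reported here. Other genes named were chosen after their values were seen. No gene was called for the difference between ages, so that part of the rule named none. The comparison and lists were chosen with earlier results of these data known, and the glycolysis, endoplasmic reticulum and red cell membrane lists after seeing which genes changed. Alternatives covered the pseudocount, filter, scaling, samples, covariates, weights and each library left out. The test was checked on simulated data that held no difference in depth or cell content between groups, so that check does not bear on either.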

Additional observations from a re-analysis of the deposited data

Results flagged for a closer look

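Within the 5 WT libraries of 1 year, 137 levels were screened for a library whose gap to its nearest neighbour took up over 0.71 of the range. Chance gives about 1 in 20, and 4 were found. Ssr1, an endoplasmic reticulum translocation gene, was lowest in WT replicate 1, at 7226 normalized reads. Csf3r was highest in WT replicate 5, at 4886. Ikzf1 was highest in WT replicate 4, at 2627. Cd74, which encodes the class II invariant chain, was lowest in WT replicate 2, at 5476. The gaps took up 0.758, 0.827, 0.857 and 0.779 of the ranges, and the 4 genes did not share a library.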

How the results depend on the processing

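For GF against WT at 1 year, the 841 calls became 462 with array quality weights, 490 with the myeloid marker covariate, 15 with the erythroid marker covariate and 19 with the depth covariate. They ranged from 150 to 1221 with 1 library left out. For 2 months, the 102 calls became 37 with only the groups compared, 56 with array quality weights and 57 with the erythroid marker covariate, and ranged from 67 (without GF replicate 3) to 109 with 1 library left out. For the difference between ages, the 0 calls became 13 without the filter and 0 to 59 with 1 library left out. With replicate number as a block, 418 genes were called at 1 year, 73 at 2 months and 0 for the difference between ages. The deviations of GF and WT replicates 1 correlated at 0.15 and those of replicates 2 at 0.0056. GF replicate 1 correlated at -0.056 to -0.0056 with WT replicates 2 to 5. With 2 GF libraries the deviation of each is the negative of the other. These values therefore cannot show whether the numbers pair the animals. No named gene that was called changed sign in any alternative, and the counts under the other alternatives were within 1.5 times. The cause of these shifts was not tested. Depth limits low genes: 3 reads equal 5.34 normalized reads in GF replicate 1 and 1.57 to 2.66 in WT libraries of 1 year.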

Other observations

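Genes called at both ages included neighbours. On chromosome 17 the dynein light chain gene Dynlt1b (6430112 to 6436296) had 2875 and 2484 normalized reads in GF libraries and 1026 to 1612 in WT libraries at 1 year. The unprocessed pseudogene Tmem181b-ps (6438524 to 6467022) beside it had 3992 and 4481 in GF libraries and 2854 to 3236 in WT libraries. The IL1R1 KO libraries of 1 year held 2067 to 2329 of Dynlt1b and 3915 to 4702 of Tmem181b-ps, closer to the GF level. Dynlt1a and Dynlt1f are close copies between which reads can be divided. On chromosome 14 Entpd4 (69337174 to 69367270) overlaps the predicted gene Gm16867 (69363504 to 69503362), which had 39.0 and 74.3 in GF libraries and 511.3 to 796.8 in WT libraries at 1 year. IL1R1 KO libraries held 8.61 to 119.1 of Gm16867. These genes were chosen after their values were seen.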
